A study of Homo sapiens with 6 samples.

Results

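The S100 genes described here are S100A4, S100A6, S100A7, S100A8, S100A9, S100A10, S100A11, S100A13, S100A14 and S100P, chosen by name as the rows of the deposited count table that carry these 10 symbols, of 33451 genes in the table. They were read in MDA-MB-453, an established human breast cancer cell line of luminal and apocrine character. The control group (CG) was cultured for 5 days in the solvent alcohol and the experimental group (EG) for 5 days in 100 nM 25(OH)D, 25-hydroxyvitamin D, the main circulating vitamin D, which cells convert to the active hormone. mRNA was sequenced in 3 libraries of each group, called control and 25(OH)D from here on. All values come from this 1 cell line, so they hold for it alone. The labels give each group 3 replicates and do not say how the cultures were kept apart, so that p-values measure the spread between these libraries.

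S100 proteins are small proteins with a pair of EF-hand motifs, the helix-loop-helix folds that hold calcium, and most work as dimers that expose a binding face on meeting calcium and then grip a target protein. Inside the cell their targets include annexins, which bind membranes, non-muscle myosin and other parts of the cytoskeleton. Outside the cell several of them act as alarm signals through receptors such as AGER, the receptor for advanced glycation end products, and TLR4. Most S100 genes lie side by side on chromosome 1, beside the genes of the epidermal barrier, and S100P is an exception on chromosome 4. In breast tissue S100 proteins are best known from the epithelium, where S100A7 marks inflamed or squamous epithelium, and from myeloid cells, which carry S100A8 and S100A9.

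After 25(OH)D, S100A6 and S100A11 were higher in every 25(OH)D library than in any control library, S100P was lower in every one, and S100A10, S100A13 and S100A14 were higher by a small amount. The calls of S100A10, S100A13 and S100A14 were lost under other scalings and when certain single libraries were left out. S100A6, a partner of the ubiquitin ligase adaptor CACYBP, was 62.9% higher (log2 fold change 0.70, SE 0.131). S100A11, which binds ANXA1, was 25.3% higher (log2 fold change 0.33, SE 0.0501). S100P, which binds ezrin, was 4.06-fold lower (log2 fold change -2.02, SE 0.427). S100A9 did not pass the test, and S100A4, S100A7 and S100A8 were too low to be tested.

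Read counts were scaled to a common library size (CPM, counts in each 1000000) with TMM factors, which remove differences in library composition, and genes were tested with the quasi-likelihood test of edgeR. P-values were adjusted by the Benjamini-Hochberg method across the 18183 genes that passed the low-count filter. Of the 10 S100 genes, 7 passed this filter. At an adjusted p under 0.05, 5 of them were higher and 1 was lower, where 17.3% of all genes tested were higher, 16.5% were lower and 33.8% were called in either direction. The 5 higher became 2 when the libraries were scaled by their sizes alone. The limits used by the study ask for a log2 fold change above 1 or below -1 with an unadjusted p under 0.05, and at these none was higher and S100P alone was lower, where 4.02% of all genes tested were higher, 2.63% were lower and 6.65% were called in either direction. At an unadjusted p under 0.05 by edgeR the numbers were also 5 higher and 1 lower, and DESeq2 gave 0 higher and 1 lower at the limits. The 3 values of each group did not overlap in 5 S100 genes with higher CPM and in 1 with lower CPM, where 22.8% and 22.9% of all genes tested did so, or 45.7% in either direction. The median log2 fold change of the 7 genes was 0.14, against -0.01 over all genes tested. S100P passed the filter through its control counts, so these counts and the median describe the genes that passed and not all 10.

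**Figure D1:**
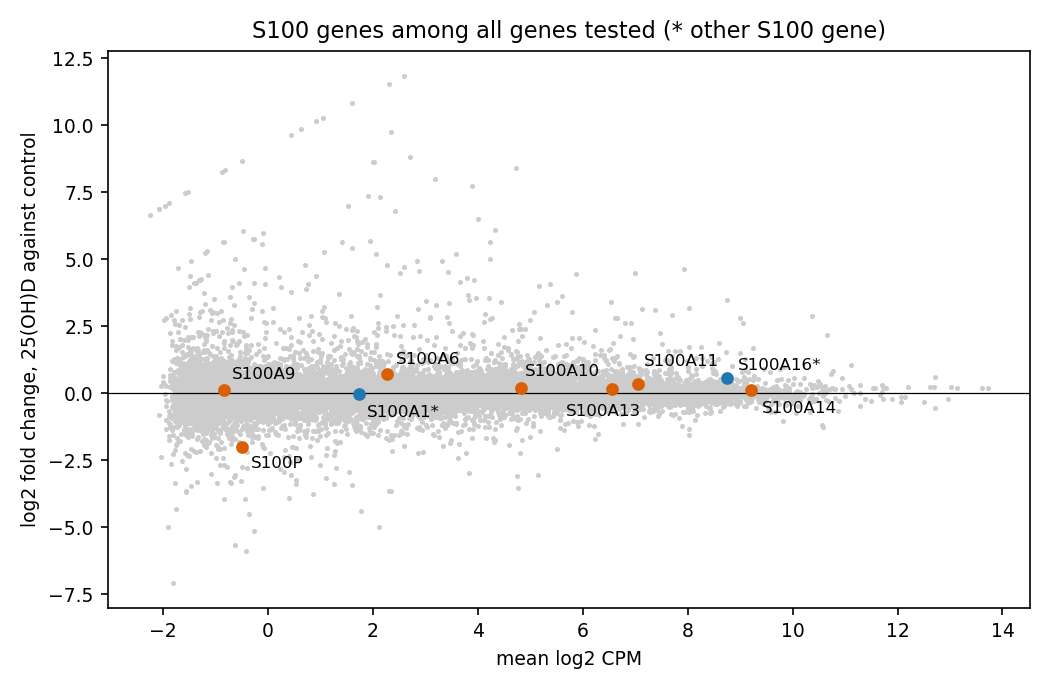
Each grey point is 1 of the 18183 genes tested, with its mean log2 CPM over the 6 libraries on the x axis and its log2 fold change of 25(OH)D against control on the y axis. The 7 S100 genes that passed the filter are in orange and 2 other S100 genes in blue. S100A6 at 0.70 and S100P at -2.02 lie farthest from 0 among the S100 genes, and S100A14 lies far to the right, among the most abundant genes.

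The total counts were between 33268860 and 40928176 per library, and a count of 3, the floor under which no fold is given, was worth between 0.0720 and 0.0921 CPM. Counts on mitochondrial genes made up 7.85% to 7.99% of the control libraries and 8.89% to 9.24% of the 25(OH)D libraries, and the part of this difference in the small rises below was not tested. Among counts from 1 to 9, between 65.3% and 68.3% were even numbers, against 50.3% to 52.0% of the counts of 500 or more, so that low counts may rest on fewer fragments than their number. Of the genes that handle vitamin D, TRPV6, an intestinal calcium channel and a target of the hormone, rose with a log2 fold change of 3.47 (SE 0.0390), and VDR, the receptor, rose with 0.72 (SE 0.0458). RXRA, the partner of VDR on DNA, fell by 0.37 on the log2 scale (SE 0.0863, adjusted p = 0.00429 by edgeR) and is named after its values were seen. CYP27B1, which makes the active hormone, had a log2 fold change of -0.06 with an adjusted p of 0.761 by edgeR, and CYP24A1, which breaks it down, is not listed in the table. The CYP27B1 value was 0.0532 without 25(OH)D replicate 3. All 12 luminal and apocrine markers were tested, with 8 higher and 3 lower (KRT19 and the lineage factors GATA3 and FOXA1), where 17.3% and 16.5% of all genes tested were, and their levels ran from MUC1 with 0.363 ± 0.0560 CPM (SD, n = 3) in control to KRT8 with 1670 ± 32.5 CPM.

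On the chromosomes, the S100 genes form a run with 1 gap. On GRCh38, S100A10 (chr1:151982915-151994390, minus strand) and S100A11 (chr1:152032506-152047907, minus strand) lie apart from the others, across the epidermal barrier genes. Then follow S100A9 (chr1:153357854-153361027, plus strand), S100A8 (chr1:153390032-153391188, minus strand), S100A7 (chr1:153457744-153460701, minus strand), S100A6 (chr1:153534599-153536244, minus strand) and S100A4 (chr1:153543613-153550136, minus strand). S100A14 (chr1:153614255-153616986, minus strand) and S100A13 (chr1:153618787-153631360, minus strand) close the run, and S100P (chr4:6693069-6697170, plus strand) stands alone.

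The vitamin D receptor binds pairs of a short half-site, and the upstream letters of the genes that moved were read for it. The stretches shown are those of S100A11, a gene that was higher, of S100A14, the most abundant S100 gene, and of its neighbour S100A16, a further S100 gene that was higher. Each stretch lies inside the span that its gene has in the deposited table, so it belongs to a start within the counted gene. Each is written 5′ to 3′ on the gene's own strand from RefSeq sequence of GRCh38.p14, with annotated exons left out, and capitals mark a half-site. The S100A11 stretch is chr1:152037036-152037254 on the minus strand, from 250 to 32 bases upstream of a RefSeq start, and holds no half-site.
S100A11: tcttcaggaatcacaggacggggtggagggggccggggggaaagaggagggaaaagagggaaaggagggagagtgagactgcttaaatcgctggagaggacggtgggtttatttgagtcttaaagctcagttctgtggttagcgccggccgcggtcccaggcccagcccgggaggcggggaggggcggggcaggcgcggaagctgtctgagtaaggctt
The S100A14 stretch is chr1:153616356-153616575 on the minus strand, from 250 to 31 bases upstream, with GGGTCA at 158 bases upstream.
S100A14: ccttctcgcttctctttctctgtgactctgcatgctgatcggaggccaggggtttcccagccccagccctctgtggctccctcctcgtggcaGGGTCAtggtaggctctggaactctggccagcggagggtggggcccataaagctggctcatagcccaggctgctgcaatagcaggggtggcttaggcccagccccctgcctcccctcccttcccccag
The S100A16 stretch is chr1:153609356-153609605 on the minus strand, the 250 bases upstream of a RefSeq start, with GGGTCA at 79 bases upstream.
S100A16: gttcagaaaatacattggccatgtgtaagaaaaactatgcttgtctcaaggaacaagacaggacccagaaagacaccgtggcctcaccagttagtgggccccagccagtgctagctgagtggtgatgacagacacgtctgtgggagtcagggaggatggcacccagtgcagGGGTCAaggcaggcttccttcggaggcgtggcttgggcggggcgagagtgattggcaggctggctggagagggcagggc
The half-sites searched, on both strands, were AGGTCA or GGGTCA or AGTTCA or GGTTCA, and any of the 4 was found in 33.8% of the 35116 windows of 250 bases upstream of all starts in the RefSeq table. All 10 S100 genes matched that table, with 14 windows, of which 7 windows in 6 genes (S100A4, S100A7, S100A8, S100A9, S100A13 and S100A14) held a half-site. A direct repeat of the half-site with 3 bases between (DR3) was found in 0.0655% of all windows and in 0 of the 14. TATAAA, searched on both strands, was found in 10.7% of all windows and in 7 of the 14, in S100A4, S100A7, S100A8, S100A9, S100A13 and S100P. A match of these letters describes the window and is no binding site.

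Compared per length, as RPKM (counts over gene length and library depth), the S100 genes spanned a wide range of levels. Levels and ratios between genes rest on the gene length given in the deposited data, which can differ from that of the transcripts made. S100A14 was highest in both groups, with 449 RPKM in control and 475 RPKM in 25(OH)D as means, above 99.6% of the genes tested. S100A11 followed with 176 and 214 RPKM, S100A13 with 40.9 and 43.8 RPKM, and S100A10 with 17.4 and 19.2 RPKM. S100A6 had 3.82 and 6.04 RPKM and lay above 62.0% of the genes tested. In control, no library of any of these 5 genes overlapped with a library of its neighbour in this order, and the same held in 25(OH)D.

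Below them, S100A9 had 0.847 RPKM and S100P 0.824 RPKM in control, and the ranges of the 2 genes overlapped. S100A8 at 0.225 RPKM and S100A4 at 0.170 RPKM overlapped as well, and S100A7 had 0.0304 RPKM from 1 library. In 25(OH)D the order of S100A9, S100A4, S100A8 and S100P was 0.896, 0.272, 0.255 and 0.193 RPKM. S100P thus moved from a place next to S100A9 to one below S100A8 and S100A4, with whose libraries it overlapped. S100A7 was at 0 in all 3 of the 25(OH)D libraries.

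**Figure D2:**
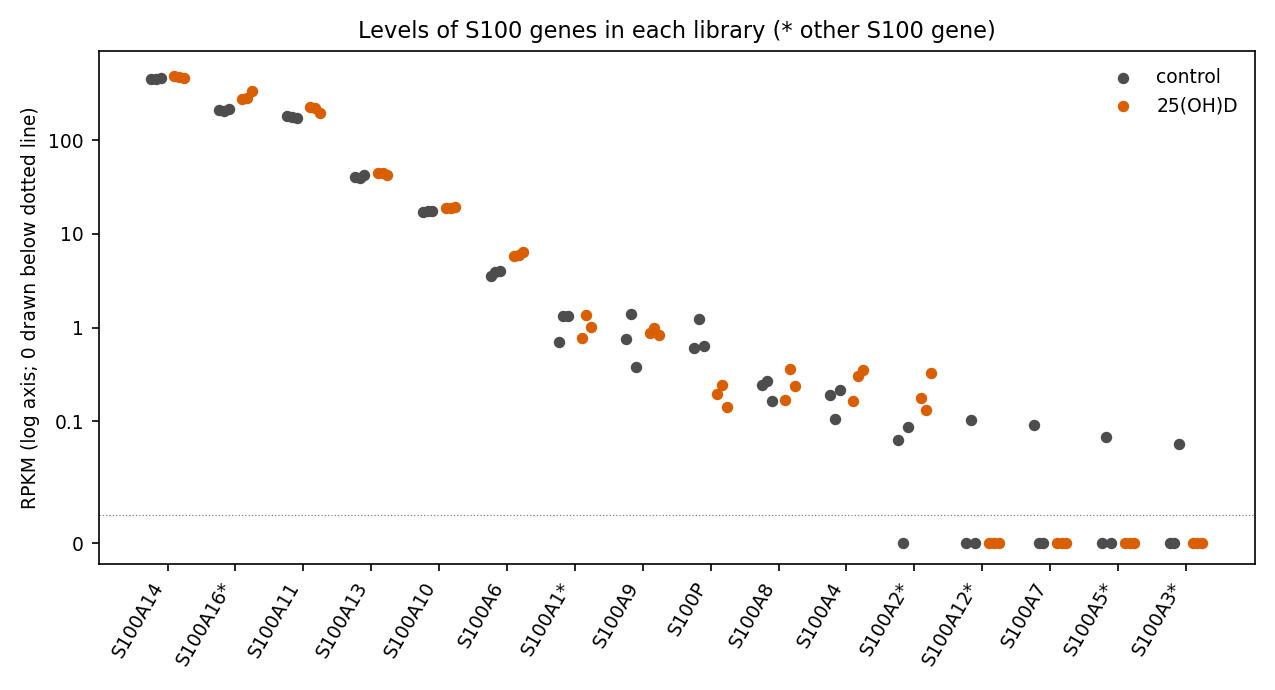
Levels of the 16 S100 genes listed in the table, with RPKM on a log axis and a count of 0 drawn below the dotted line, and 1 point per library (grey control, orange 25(OH)D, replicates 1 to 3 from left to right). An asterisk marks the 6 S100 genes outside the 10. Levels run from 489 RPKM in the highest library of S100A14 to 0 in libraries of S100A2, S100A3, S100A5, S100A7 and S100A12, and S100P is the only one of the S100 genes tested whose orange points all lie below its grey points.

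Added up, the 10 S100 genes had between 798 and 819 CPM in the control libraries and between 874 and 930 CPM in the 25(OH)D libraries. Every 25(OH)D library was above every control library in this sum. S100A14 alone made 559 to 576 CPM of it in control and 604 to 636 CPM in 25(OH)D, so the sum mostly reads this gene.

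S100A6, or calcyclin, is a small dimer that binds CACYBP and annexins and is associated with dividing epithelial cells. It had 141, 142 and 141 counts in control and 202, 222 and 207 counts in 25(OH)D. As levels these were 3.39, 3.75 and 3.83 CPM in control and 5.75, 5.77 and 6.35 CPM in 25(OH)D. The groups were far apart, and all 3 of the 25(OH)D libraries lay close together. The means were 3.66 ± 0.237 CPM and 5.96 ± 0.342 CPM (SD, n = 3), and S100A6 rose with a log2 fold change of 0.70 (95% interval 0.45 to 0.96, adjusted p = 7.46e-04 by edgeR). Among all genes tested, 7.16% had a fold change as high or higher. S100A6 shares 23 exon bases with BX470102.3 on the opposite strand, a gene with 5 counts in control and 1 in 25(OH)D.

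S100A11, or calgizzarin, works in membrane repair and in the growth control of epithelial cells. It had 121, 117 and 116 CPM in control and 156, 151 and 137 CPM in 25(OH)D. Its lowest 25(OH)D library, replicate 3, was still above its highest control library. S100A11 rose with a log2 fold change of 0.33 (95% interval 0.23 to 0.42, adjusted p = 1.51e-04 by edgeR), and 18.6% of the genes tested had a fold change as high or higher. Its counts were high, between 4278 and 5806 per library, and the means were 118 ± 2.39 and 148 ± 9.90 CPM (SD, n = 3).

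S100A10 differs from the other members in that it does not bind calcium and is always ready to bind ANXA2, with which it forms a complex under the plasma membrane. It had 25.6, 26.8 and 26.8 CPM in control and 29.7, 29.6 and 30.8 CPM in 25(OH)D. The groups did not overlap, although the distance between them was small. S100A10 rose with a log2 fold change of 0.19 (SE 0.0614, adjusted p = 0.0292 by edgeR). This call was lost without any single 25(OH)D library or without control replicate 1 or 2, with adjusted p-values from 0.0522 to 0.0827 and log2 fold changes from 0.17 to 0.21.

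S100A13 takes part in the release of FGF1 and IL1A, growth factor and cytokine without a signal peptide, out of the cell. It had 87.1, 86.7 and 94.3 CPM in control and 101, 99.6 and 94.9 CPM in 25(OH)D. Control replicate 3 and 25(OH)D replicate 3 were nearly level, and in CPM the groups were apart by that small step. In RPKM, which uses no TMM factors, the groups overlapped, with 42.9 in control replicate 3 and 41.95 in 25(OH)D replicate 3. S100A13 rose with a log2 fold change of 0.14 (SE 0.0491, adjusted p = 0.0393 by edgeR), a call lost without 25(OH)D replicate 1 or 2 or control replicate 1 or 2 (adjusted p from 0.105 to 0.142). It shares 536 exon bases with RP1-178F15.5 on the same strand and 235 with S100A1 on the opposite strand, and 18.2% of the stretches of 100 bases in its transcripts occur in other genes, so its count is uncertain. FGF1 and IL1A had at most 6 counts in any library.

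S100A14 is found mainly in epithelia and in breast cancer cells. It had 559, 561 and 576 CPM in control and 636, 611 and 604 CPM in 25(OH)D. The groups did not overlap, and its mean rose from 566 ± 9.22 to 617 ± 17 CPM (SD, n = 3). The log2 fold change was 0.13 (SE 0.0349, adjusted p = 0.0123 by edgeR), which was lost without 25(OH)D replicate 1 (0.11, adjusted p = 0.0554). S100A10, S100A13 and S100A14 also lost the call when the libraries were scaled by their sizes alone, with log2 fold changes of 0.14, 0.10 and 0.08 and adjusted p-values of 0.0883, 0.143 and 0.0773. That scaling lowered the median of all genes by 0.04.

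S100P is a member first described in placenta that is made by many carcinomas, where it binds ezrin inside the cell and AGER outside. It had 32, 58 and 30 counts in control and 9, 12 and 6 counts in 25(OH)D. The corresponding levels were 0.769, 1.53 and 0.815 CPM in control and 0.256, 0.312 and 0.184 CPM in 25(OH)D. The groups did not overlap, control replicate 2 stood above the other control libraries, and all 3 of the 25(OH)D libraries stayed above the level of 3 counts. Low counts may rest on fewer fragments than their number, so the distance of S100P from that level is uncertain. The means were 1.04 ± 0.429 and 0.251 ± 0.0641 CPM (SD, n = 3), and S100P fell by 2.02 on the log2 scale (95% interval -2.86 to -1.18, adjusted p = 0.00199 by edgeR). Of all genes tested, 0.506% had a fold change as low or lower. Without control replicate 2 the log2 fold change was -1.63 (adjusted p = 0.0198), and without any low-count filter it was -2.02 (adjusted p = 2.43e-05). On log2(RPKM + 1), where a gene of this level is compressed, it was -0.60 with limma (adjusted p = 0.0113) and so not past the limits of the study.

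**Figure D3:**
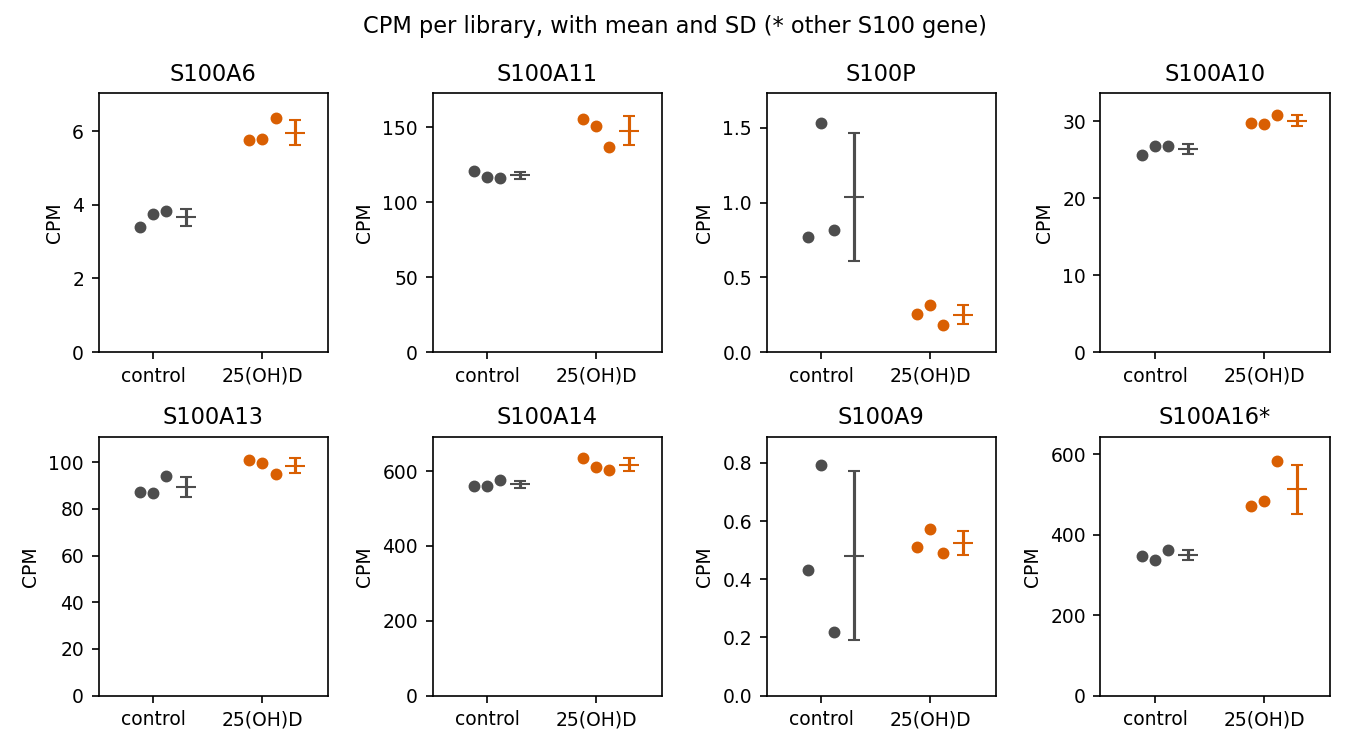
CPM of 7 S100 genes and of S100A16 (asterisk) in each library, with control in grey and 25(OH)D in orange. Points are libraries, replicates 1 to 3 from left to right, and the bar beside them is the mean with its SD (n = 3), on axes that start at 0. S100A6, S100A11 and S100A16 separate upward and S100P downward, S100A10, S100A13 and S100A14 separate by a small step, and the S100A9 values of 0.491 to 0.572 CPM in 25(OH)D lie within the control range of 0.217 to 0.793 CPM.

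S100A8 and S100A9 form calprotectin, the zinc- and calcium-binding complex of neutrophils and monocytes that is also made by stressed epithelium. S100A9 had 18, 30 and 8 counts in control and 18, 22 and 16 counts in 25(OH)D. The 25(OH)D libraries lay inside the control range. Its log2 fold change was 0.13 (95% interval -0.77 to 1.02, adjusted p = 0.860 by edgeR), and it was -0.20 without control replicate 3 (adjusted p = 0.787) and 0.68 without control replicate 2, and its interval spanned both a fall and a rise at this depth. S100A8 had 10, 10 and 6 counts in control and 6, 14 and 8 in 25(OH)D, with overlapping groups, and did not pass the filter. In the fit without the filter its log2 fold change was 0.23 (SE 0.690, adjusted p = 0.866).

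The ratio of S100A8 to S100A9 in RPKM was 0.319, 0.191 and 0.430 in control and 0.191, 0.365 and 0.287 in 25(OH)D. The ratios of the groups overlapped, and S100A9 was above S100A8 in every library. Of 10 myeloid markers 8 were listed, with summed levels of 4.80 to 6.37 CPM in control and 13.6 to 19.6 CPM in 25(OH)D. CD68, a lysosomal protein, made nearly all of that and rose with a log2 fold change of 1.69 (SE 0.152). It shares 1789 exon bases on the same strand with RP11-186B7.4. TYROBP and LYZ, named after their values were seen and not tested under the filter, were lower in counts. TYROBP had 10, 8 and 14 against 4, 0 and 0, and its groups did not overlap. LYZ had 18, 10 and 4 against 6, 6 and 4, and its groups overlapped. Other markers that were not tested were higher in counts summed over the libraries, with overlapping groups. These sums were 2 against 10 for ITGAM, 6 against 12 for CD14, 5 against 10 for PTPRC and 6 against 7 for CSF1R. The lowest of the listed markers was FCGR3A, with at most 4 counts in a library, PTPRC, the pan-leukocyte marker, had at most 6, and FCN1 and MPO are not listed. The libraries come from an established breast cancer cell line, so the marker sums describe its RNA and not a number of myeloid cells. In bulk RNA, a change in every cell and a change in part of the cells cannot be told apart.

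S100A7, or psoriasin, is secreted by squamous epithelium and by some breast carcinomas. It had 2 counts in control replicate 1 and 0 in the other 5 libraries. Both groups were under the level of 3 counts per library, so no fold is given, and at this depth no difference was detectable. Of the 11 squamous and basal markers, 10 were listed, with summed levels of 8.72 to 13.7 CPM in control and 10.4 to 15.5 CPM in 25(OH)D. The highest was KRT10, with 9.85 ± 2.71 and 8.44 ± 2.82 CPM (SD, n = 3), the lowest was SPRR1B, with 2 counts in 1 control library, and LORICRIN is not listed. Of 4 of these markers tested, KRT16 was higher with a log2 fold change of 2.89 and TP63 was lower, both named after their values were seen. KRT5 and KRT10 were not called (log2 fold changes 1.21 and -0.23, adjusted p = 0.201 and 0.455 by edgeR). KRT14 and IVL, also named after their values were seen, did not pass the filter, and their groups did not overlap in CPM. KRT14 had 4, 6 and 1 counts in control and 24, 8 and 12 in 25(OH)D, whereas IVL had 4, 2 and 4 against 0, 2 and 0. The IVL groups were apart through the scaling alone, since replicate 2 had 2 counts in each group (0.0529 CPM in control and 0.0520 CPM in 25(OH)D). TP63 had 12, 26 and 19 counts in control and 3, 2 and 2 in 25(OH)D, at or under the floor, so no fold is given for it. S100A7 was at the level of SPRR1B.

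S100A4, which binds the tail of the myosin MYH9 and is abundant in fibroblasts and motile cells, had 8, 4 and 8 counts in control and 6, 12 and 12 counts in 25(OH)D. Its groups overlapped, and it did not pass the filter. Without the filter its log2 fold change was 0.71 (SE 0.726, adjusted p = 0.555 by edgeR). Of 8 fibroblast markers 7 were listed, with sums of 36.6 to 39.3 CPM in control and 32.3 to 34.8 CPM in 25(OH)D. COL1A1 made nearly all of these sums and was the only one tested, with a log2 fold change of -0.18 (adjusted p = 0.0320), a call lost without 25(OH)D replicate 1 or 2 or control replicate 1 or 2 (adjusted p from 0.0984 to 0.123), without the filter (0.0677) and with limma on log2(RPKM + 1) (0.0528). LUM was the lowest with 2 counts in 1 library, PDGFRA and LUM were at 0 in all control libraries, and COL3A1 is not listed.

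**Figure D4:**
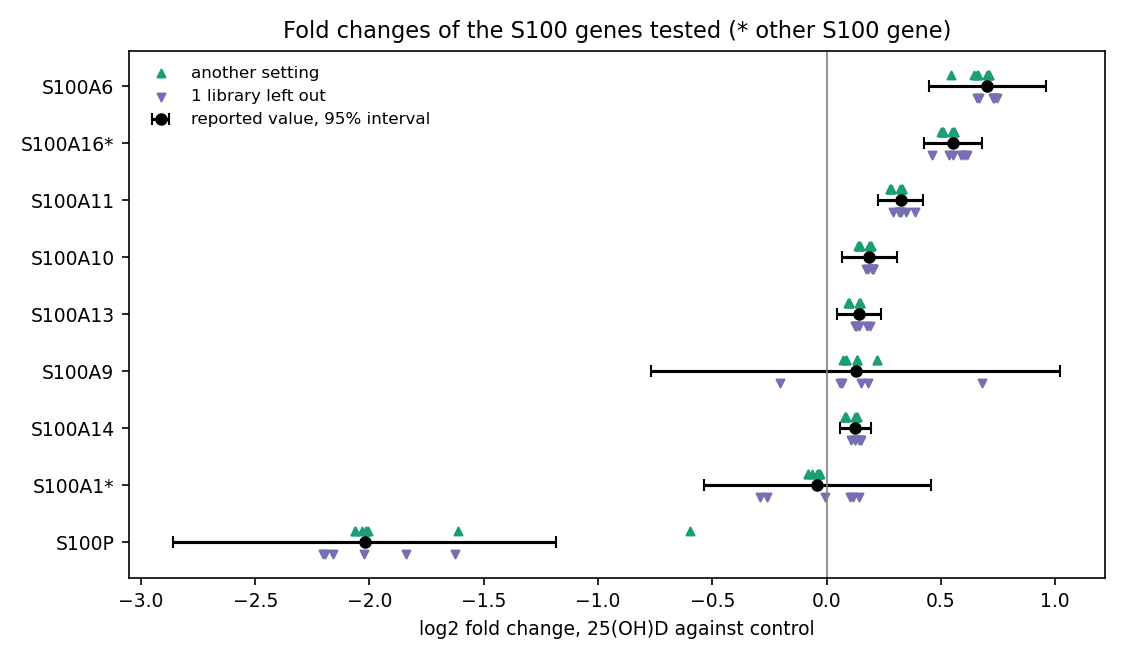
Log2 fold change of 25(OH)D against control for the 7 S100 genes tested and 2 others (asterisk), as a black point with its 95% interval. Upward triangles are other settings of normalization, filter or test, and downward triangles leave out 1 library each. S100A6, S100A11 and S100A16 stay above 0 and S100P below 0 at every setting drawn, whereas S100A9 and S100A1 lie on either side of 0.

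Of 11 further S100 genes, 6 were listed and 2 passed the filter. S100A16, an S100 protein of epithelia and fat tissue, had 347, 339 and 363 CPM in control and 472, 485 and 583 CPM in 25(OH)D. The groups were far apart, with 25(OH)D replicate 3 highest. It rose with a log2 fold change of 0.55 (SE 0.0643, adjusted p = 1.06e-05 by edgeR), and 10.1% of the genes tested had a fold change as high or higher. S100A1, best known from heart muscle, had 2.07, 3.94 and 3.99 CPM in control and 2.39, 4.14 and 3.13 CPM in 25(OH)D, with overlapping groups and a log2 fold change of -0.04 (adjusted p = 0.923), which was 0.14, 0.10 and 0.12 without 25(OH)D replicate 1, control replicate 2 or control replicate 3.

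S100A2, an S100 protein of basal epithelium, had 4, 0 and 5 counts in control and 10, 8 and 17 counts in 25(OH)D. Its groups did not overlap, but it did not pass the filter, and without the filter its log2 fold change of 2.07 had an adjusted p of 0.0645 by edgeR. S100A3, S100A5 and S100A12 each had 2 counts in 1 control library and 0 elsewhere. S100A7A, S100A7L2, S100B, S100G and S100Z are not listed in the table.

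Along chromosome 1, from S100A10 to S100A1, the table held 15 S100 genes and 18 other genes. Of the S100 genes, 8 were tested and 6 were higher, where 17.3% of all genes tested were, and 3 of the 6 (S100A10, S100A13 and S100A14) lost the call under other scalings. Of the other genes, 2 were tested and neither was called, and 10 had no more than 3 counts in any library. The summed level of the 15 S100 genes was 1139 to 1185 CPM in control and 1387 to 1461 CPM in 25(OH)D, and that of the 18 others was 1.32 to 2.50 CPM and 1.30 to 1.72 CPM. The 2 groups of libraries were apart in the first sum and overlapped in the second.

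Neighbours lay at very different levels. S100A16, S100A14 and S100A13 start 1624, 1631 and 1636 kb from the start of S100A10 and were among the highest S100 genes, whereas S100A5, S100A4, S100A3 and S100A2 just before them, at 1554, 1561, 1564 and 1578 kb, had at most 17 counts in a library. S100A6 starts at 1552 kb, between low genes on both sides, and had the largest log2 fold change of the S100 genes tested on chromosome 1. Among genes built on an S100 domain fused to a long repeat, which lie between S100A11 and S100A9, 6 of 7 were listed and only TCHH, trichohyalin of the hair follicle, was tested. Its values of 70, 24 and 58 counts in control and 30, 10 and 34 in 25(OH)D overlapped, with a log2 fold change of -0.87 (adjusted p = 0.165 by edgeR, and 0.0319 without the low-count filter).

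Annexins are the best known partners of S100 proteins. Of 13 annexins 12 were listed and 9 tested, of which 5 were higher and 2 lower, where 17.3% and 16.5% of all genes tested were, and the median log2 fold change was 0.20. ANXA2, the partner of S100A10, rose from 383 ± 15.5 to 665 ± 20.02 CPM (SD, n = 3), a log2 fold change of 0.80 (SE 0.0396, adjusted p = 1.34e-09 by edgeR). ANXA9 and ANXA4 rose with 0.89 and 0.32. ANXA11, a partner of S100A6, fell from 10.1 ± 0.769 to 4.06 ± 0.251 CPM (SD, n = 3), by 1.31 on the log2 scale (SE 0.116).

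ANXA1, the partner of S100A11, had 54, 24 and 30 counts in control and 22, 8 and 8 counts in 25(OH)D. The groups did not overlap in CPM. ANXA1 passed the filter through its control counts, so the counts of annexins called and their median describe the annexins that passed. ANXA1 fell by 1.35 on the log2 scale (SE 0.463, adjusted p = 0.0369 by edgeR). That call was also lost with limma on RPKM. It was lost without 25(OH)D replicate 2 or 3 or control replicate 1 or 3, with log2 fold changes of -1.05, -1.14, -0.998 and -1.42 and adjusted p-values from 0.0576 to 0.183, whereas without 25(OH)D replicate 1 the value was -2.004. Setting the pairs side by side, S100A10 and ANXA2 both rose, S100A11 rose where ANXA1 fell, and S100A6 rose where ANXA11 fell.

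In RPKM, the ratio of S100A10 to ANXA2 was 0.391, 0.411 and 0.382 in control and 0.249, 0.253 and 0.274 in 25(OH)D. ANXA2 was thus above S100A10 in every library, and the ratios of the groups did not overlap.

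Of 22 other partners inside the cell, 19 were tested, with 7 higher, 5 lower and a median log2 fold change of 0.08. Of all genes tested, 17.3% were higher, 16.5% were lower and 33.8% were called in either direction. The heavy chain MYH9, the myosin bound by S100A4, rose with 0.30 (SE 0.0324, adjusted p = 5.09e-06 by edgeR). AHNAK, a giant scaffold bound by the complex of S100A10 and ANXA2, and CAPZA1, which caps actin filaments, each rose with 0.34 (SE 0.0487 and 0.0510). PPFIBP1, a liprin bound by S100A4, fell by 0.48 on the log2 scale (SE 0.0473). EZR, the membrane to actin linker bound by S100P, fell by 0.17 (SE 0.0373), and STIP1, a cochaperone bound by S100A1, S100A2 and S100A6, fell by 0.13 (SE 0.0407), a call lost without 25(OH)D replicate 2 or 3 or control replicate 1 or 3 (adjusted p from 0.0857 to 0.126). CAPZA1 shares 624 exon bases with ST7L and EZR 24 with EZR-AS1, each on the opposite strand.

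CACYBP, the partner of S100A6 and S100P, fell from 267 ± 13.7 to 242 ± 9.86 CPM (SD, n = 3), by 0.15 on the log2 scale (SE 0.0455, adjusted p = 0.0236 by edgeR). Without 25(OH)D replicate 1 or 2 or control replicate 2 or 3 this call was lost (adjusted p from 0.0626 to 0.132). It shares 351 exon bases with MRPS14 on the opposite strand. SYT1, a vesicle protein reported with S100A13 and named here after its values were seen, was the only partner past the limits of the study, with 4, 4 and 5 counts in control and 12, 26 and 14 in 25(OH)D (log2 fold change 2.08, SE 0.522). It passed the filter through its 25(OH)D counts. Its call was lost without 25(OH)D replicate 2 (1.76, adjusted p = 0.0549) and on log2(RPKM + 1) with limma (0.0765, adjusted p = 0.119). These 12 calls were spread over the partners of several S100 proteins in both directions.

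Of 10 receptors of extracellular S100 proteins, 5 were tested, with a median log2 fold change of 0.16. None was lower by edgeR or by DESeq2, nor at an unadjusted p under 0.05 by edgeR, where 3 were higher. At an adjusted p under 0.05, 2 were higher by edgeR and by DESeq2. Of all genes tested 17.3% were higher, and these 2 of 5 were near the 33.8% called in either direction. AGER, the receptor of S100P among others, had 139, 151 and 199 counts in control and 90, 106 and 139 in 25(OH)D, with a log2 fold change of -0.41 (SE 0.220, adjusted p = 0.173). The groups overlapped in CPM, and without 25(OH)D replicate 3 AGER was called lower (-0.66, adjusted p = 0.0292). TLR4, the receptor of calprotectin, had 2 counts in 1 25(OH)D library and 0 in the other 5. ALCAM, an adhesion molecule, rose with 0.82 (SE 0.0338), and BSG, or basigin, which binds S100A9, rose with 0.33 (SE 0.0468).

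**Figure D5:**
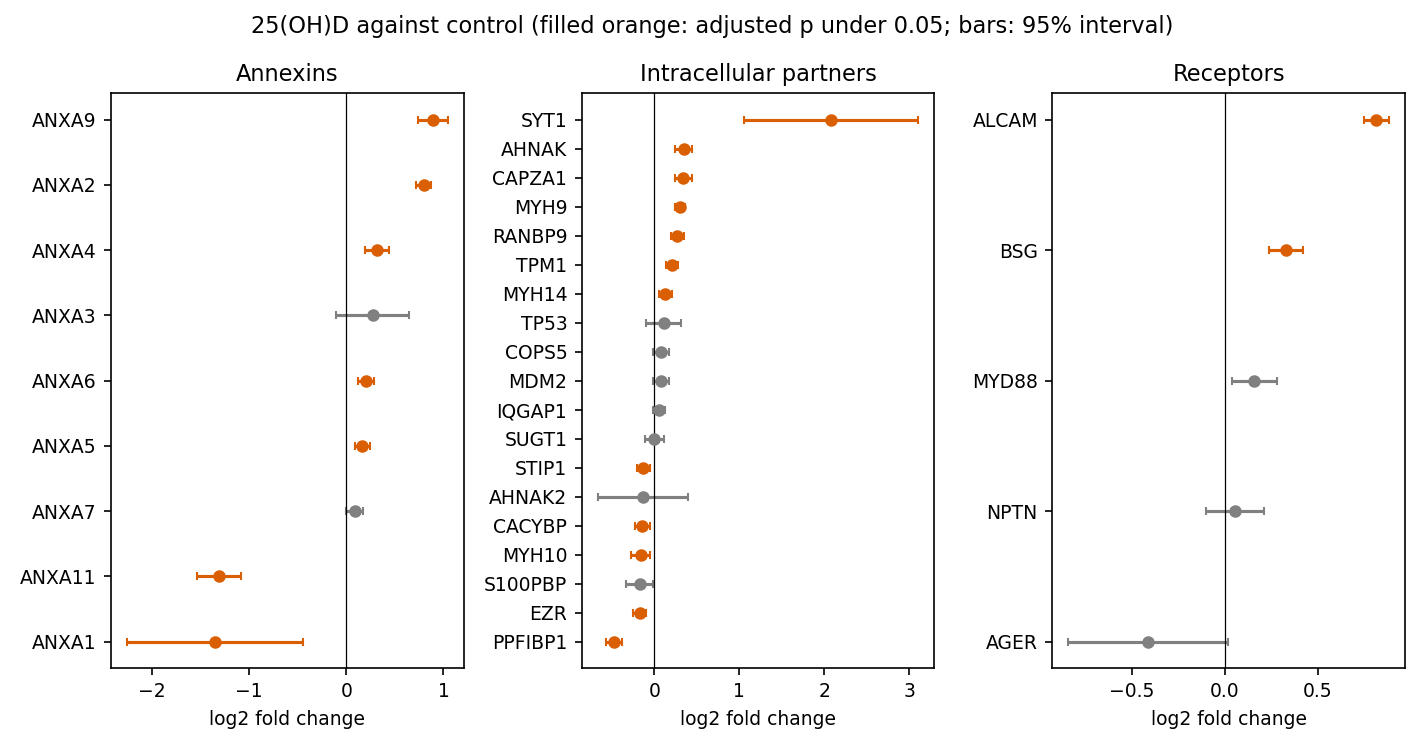
Log2 fold change of 25(OH)D against control for the annexins, other intracellular partners and receptors that passed the filter, with 95% intervals, in orange where the adjusted p was under 0.05 and in grey otherwise. Scales differ between the panels. ANXA9 and ANXA2 lie highest and ANXA1 and ANXA11 lowest among the annexins, most intracellular partners lie within a narrow band around 0, and ALCAM at 0.82 stands above the other receptors.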

How the data were processed

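MDA-MB-453 libraries of mRNA, 3 per group, were assigned to groups and replicates from the sample labels. The authors deposited raw read counts per gene and RPKM values. Per the labels, the kit was stranded, reads were paired, and the submitters' processing notes name Trimmomatic 0.36, featureCounts, Subread 1.5.1, edgeR 3.12.1 and GRCh38. The aligner, the annotation release, the strand setting and whether pairs or mates were counted are not given in the sources used here, so that reads of a gene and of an antisense partner cannot be told apart. The deposited RPKM equalled the count divided by gene length and library total in every row. No listed gene had 0 counts in all 6 libraries, and all columns of values were used.

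Counts were tested in R 4.3.3 with edgeR 4.0.16 (TMM, filterByExpr with a minimum count of 10, quasi-likelihood test, no covariate) and Benjamini-Hochberg adjustment over 18183 genes. The biological coefficient of variation was 0.0788. The test was checked on simulated data with the same dispersion for every gene. Detection was required there only of the larger changes at higher counts, so the check does not cover low counts or small changes. CPM uses TMM-scaled sizes, and 95% intervals are 1.96 SE. Alternatives were DESeq2 1.42.0, limma 3.58.1 on log2(RPKM + 1) and log2(RPKM + 0.1), other scalings, no filter, a replicate block, Bonferroni adjustment, leaving out S100A13, which shares exon bases on its strand, and leaving out each library. No pair of replicates was a duplicate (chi-square per gene from 4.01 to 12.1).

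The S100 genes and the lists of partners and markers were chosen with earlier results of these data known. The text names all S100 genes, in each partner list the 3 genes with the smallest p in each direction at an adjusted p under 0.05, ANXA1, ANXA2, CACYBP, AGER, TLR4 and AHNAK, other tested cluster genes called, the lowest and highest marker of each list and those at 0, and VDR, CYP27B1, CYP24A1 and TRPV6. Upstream windows are from RefSeq, GRCh38.p14, with exons of the GENCODE annotation and of the deposited table left out of printed stretches. The transcripts read for shared stretches were also those of GENCODE. S100A6, S100A10 and S100P lie in annotated exons over the whole window and are not shown.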

Additional observations from a re-analysis of the deposited data

How the results depend on the processing

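The calls of S100A6, S100A11 and S100P at an adjusted p under 0.05 held under every normalization, filter and test tried and without each library in turn, with log2 fold changes of 0.55 to 0.75, 0.28 to 0.39 and -2.21 to -0.60. The 5 S100 genes called higher became 2 with upper-quartile factors and with library sizes alone, 3 with limma on log2(RPKM + 1) and on log2(RPKM + 0.1), and 2 to 5 without 1 library. Under Bonferroni adjustment over all genes tested, 0 were higher and 0 lower by edgeR, against 5 and 1 at an unadjusted p under 0.05 and 5 and 1 by DESeq2 with Benjamini-Hochberg adjustment. S100A10 was no longer called with upper-quartile factors (0.15, adjusted p = 0.0862), library sizes alone (0.14, 0.0883) or no filter (0.19, 0.0653), and gave 0.17 to 0.21 without 1 library. S100A13 was no longer called with these 2 scalings (0.0995, adjusted p = 0.155, and 0.0974, 0.143), with limma on either pseudocount (0.0952, 0.145, and 0.0972, 0.146) or with the replicate number as a block (0.14, 0.0561), and gave 0.13 to 0.19 without 1 library. S100A14 was no longer called with these scalings (0.0838, adjusted p = 0.105, and 0.0813, 0.0773) or with limma (0.0810, 0.118, and 0.0811, 0.123), and gave 0.11 to 0.15 without 1 library. The 2 scalings lowered the median of all genes by 0.04, and the cause of the other losses was not tested. S100A9 ran from -0.20 to 0.68 and S100A1 from -0.29 to 0.14 without 1 library, with S100A1 at 0.14, 0.10 and 0.12 without 25(OH)D replicate 1, control replicate 2 and control replicate 3, and CYP27B1 ran from -0.128 to 0.0532 without 1 library.

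At the limits of the study, limma on log2(RPKM + 1) called no S100 gene lower, and the 731 genes higher became 243. The 478 genes lower became 753 without the filter, which tests more low genes, 70 on log2(RPKM + 1) and 317 on log2(RPKM + 0.1). The 2 annexins called lower became 1 with limma on either pseudocount and 1 to 2 without 1 library, the 5 partners called lower became 2 to 4, and the receptors called lower ranged from 0 to 1. Without the filter 1 gene of the chromosome 1 run that is no S100 gene, TCHH, was called lower. Replicate numbers did not pair the libraries, since same-numbered libraries correlated at -0.072, -0.012 and -0.046 in their deviations from the group means, and the block changed no call of an S100 gene other than that of S100A13, and ended that of COL1A1 (adjusted p = 0.0511). S100A4, S100A7 and S100A8 are limited by depth, with at most 14 counts in a library.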
